A study of Mus musculus with 2 samples.

Results

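Rab GTPases are the small GTP-binding proteins that give each membrane compartment its identity, and they were read here in the jejunum of wild-type mice and of mice labelled XBP1 knock-out. A probe set, the group of short oligonucleotides that reads a transcript on the array, was taken when its platform annotation gave 1 gene symbol made of Rab, a number and an optional letter. Probe sets of Rin1, which encodes an activator of RAB5, were added. This gave 134 probe sets for 60 genes, 59 Rab genes and Rin1, out of 18193 genes named by probe sets with a single symbol. Signal exceeded the floor of 68.1 units, the 50th percentile over both arrays, on at least 1 array for 49 members, which are called measured. The 11 others, all Rab genes, were at or below the floor on both arrays: Rab3b, Rab3c, Rab7b, Rab9b, Rab26, Rab33a, Rab39, Rab39b, Rab40b, Rab42 and Rab44.

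The study has 2 arrays, 1 with RNA pooled from 3 wild-type mice and 1 with RNA pooled from 3 mice labelled XBP1 knock-out. RNA came from scrapings of the jejunum, the stretch of small intestine after the duodenum, and so mixes epithelium with whatever other cells were scraped off. The sources used here do not give strain, sex, age, the part of Xbp1 that was removed or which cells lost it. A single pooled array stands for each genotype, so replicate spread was not measured, no p-value is printed, and the precision of all values below is limited by having 2 arrays.

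A Rab protein is switched on when an exchange factor (GEF) loads it with GTP and switched off when a GTPase-activating protein (GAP) makes it hydrolyse that GTP. In the active state it recruits effectors such as tethers and motor proteins, so that vesicles bud, move and dock at the right membrane. Prenyl groups hold Rab proteins in the membrane, and GDP dissociation inhibitors carry the inactive form through the cytosol. In the intestine, enterocytes use Rab proteins to build the apical brush border and to recycle receptors, while Paneth, goblet and enteroendocrine cells use them to release granules. XBP1 is the transcription factor made after the stress sensor IRE1 splices its mRNA, and it drives genes of the endoplasmic reticulum (ER) and the secretory pathway.

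The upstream windows of the 3 members at least 2-fold different between the pools are shown first, since XBP1, whose gene the labels give as knocked out, binds DNA; these windows and the motifs were chosen after values had been seen. Each is the 250 bases before an annotated start site, from RefSeq on GRCm38.p6, 5′ to 3′ on the gene's strand. Capitals mark matches, on either strand, to the motifs listed after the sequences. The Rin1 window is chr19:5050565-5050814 on the plus strand, the Rab13 window chr3:90220534-90220783 on the plus strand and the Rab23 window chr1:33719646-33719895 on the plus strand. Rab13 and Rab23 each have another annotated start whose window is not printed: that of Rab13 holds 0 matches and that of Rab23 holds 1, a GC box, so the windows shown are those with more matches.
Rin1: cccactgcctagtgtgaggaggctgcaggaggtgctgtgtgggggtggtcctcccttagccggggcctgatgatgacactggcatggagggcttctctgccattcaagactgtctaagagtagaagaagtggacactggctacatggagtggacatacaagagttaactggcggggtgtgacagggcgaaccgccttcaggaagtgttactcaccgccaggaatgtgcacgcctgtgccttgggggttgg
Rab13: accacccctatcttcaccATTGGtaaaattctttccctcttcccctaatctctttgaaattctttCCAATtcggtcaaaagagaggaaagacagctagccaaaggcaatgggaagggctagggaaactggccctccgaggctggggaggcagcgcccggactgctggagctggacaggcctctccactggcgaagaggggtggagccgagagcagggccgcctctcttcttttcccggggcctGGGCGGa
Rab23: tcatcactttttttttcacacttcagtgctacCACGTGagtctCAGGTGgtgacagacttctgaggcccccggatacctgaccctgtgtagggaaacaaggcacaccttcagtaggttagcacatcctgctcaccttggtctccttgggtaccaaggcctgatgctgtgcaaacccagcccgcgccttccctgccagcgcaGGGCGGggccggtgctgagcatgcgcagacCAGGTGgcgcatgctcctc

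RefSeq windows were found for 49 of the 60 members, 61 windows in all. The searched motifs were TGACGTG and its inner ACGTG, read by XBP1 and related basic leucine zipper factors, the ER stress element made of CCAAT, any 9 bases and CCACG, and CCAAT alone. TGATGNAA, an element read by ATF4, CAGGTG, an E-box, and GGGCGG, a GC box, were also searched. TGACGTG was in 0 of the 61 windows and in 1.65% of all 32851 windows, and the ER stress element was in 0 and in 0.113%. ACGTG stood in 10 member windows, 16.4%, against 16.6% of all windows, and 1 of the 10 is the Rab23 window above. TGATGNAA was in 1 member window, that of Rab21, against 3.45% of all windows. GGGCGG was in 40 member windows, 65.6%, against 32.7% of all windows, which also include genes that make no protein. CCAAT was in 24 member windows, 39.3% against 33.8%, and CAGGTG in 9, 14.8% against 17.2%. The Rin1 window held no match to any of these motifs. A match is a run of letters and not a shown binding site, and its absence covers this window only.

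Most Rab transcripts differed little between the pools, and Rin1 stood far from the rest. In what follows a signal is the deposited value scaled so that both arrays share their 75th percentile, and a log2 ratio is the knock-out-labelled pool minus the wild-type pool. Where a gene has several probe sets, the one with the highest mean log2 signal stands for it. Of 48 measured Rab genes, 1 was higher and 1 lower by 2-fold or more, 2.08% in each direction. Over all 12826 measured genes the shares were 2.25% higher and 5.08% lower, and for the values as deposited 2.99% and 4.14%. At 1.5-fold, 2 Rab genes were higher, 4.17%, and 6 lower, 12.5%, beside 7.84% and 16.3% of all genes. The median log2 ratio of the Rab genes was -0.11, and that of all measured genes was -0.11 as well. Below 0 lay 31 of the 48, 64.6%, beside 60.2% of all measured genes, the share against which counts below 0 are to be read throughout.

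**Figure D1:**
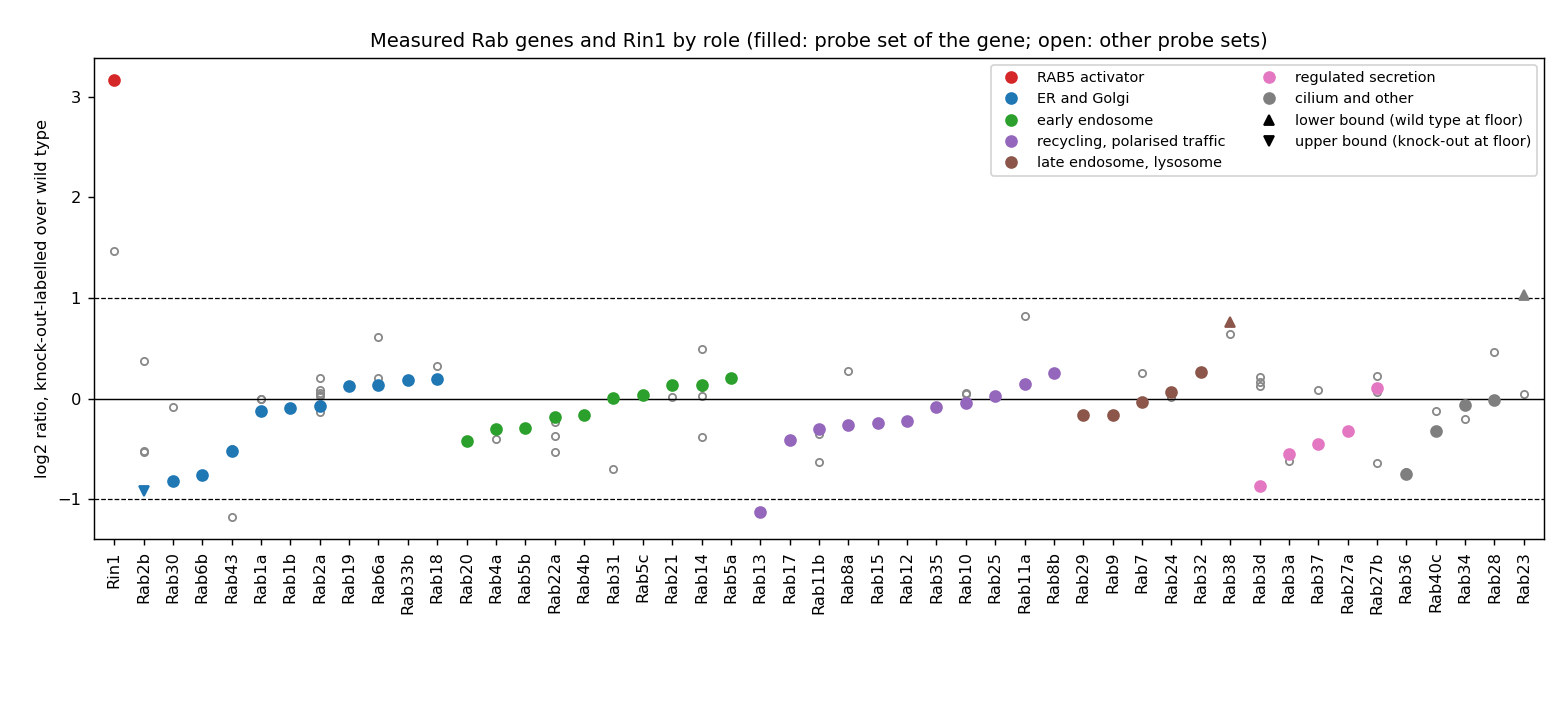
Log2 ratio of the knock-out-labelled over the wild-type pool (vertical axis) for the 49 measured members, grouped by role along the horizontal axis; filled symbols are the probe set that stands for the gene, triangles are bounds with 1 array at the floor, open circles are the other measured probe sets (bounds among them at their value), and dashed lines mark 2-fold. Rin1 lies at 3.16, Rab13 at -1.13 and Rab23 at a lower bound of 1.03, and the other filled symbols lie between the dashed lines.

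The size of the differences was also read without their sign. The median absolute log2 ratio was 0.20 for the 48 Rab genes and 0.31 for all measured genes, and 83.3% of Rab genes lay within 1.5-fold against 75.8% of all genes. Dim genes scatter more, so the same was done for genes that reached 4 times the floor on at least 1 array. There the median absolute log2 ratio was 0.16 for 39 Rab genes and 0.28 for 7719 genes, with 36 of the 39 within 1.5-fold. Among these brighter genes, 0 Rab genes were higher by 2-fold, beside 2.1% of all, and 1 was lower, beside 4.37%. At 1.5-fold, 0 were higher, beside 7.16%, and 3 lower, beside 12.7%. Size moves with the scaling as well: the median absolute log2 ratio was 0.30 for Rab genes and 0.36 for all genes with labelling spikes equal, and 0.62 and 0.65 with hybridisation spikes equal. These are descriptions of 2 arrays, with no test of the family against other genes.

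**Figure D2:**
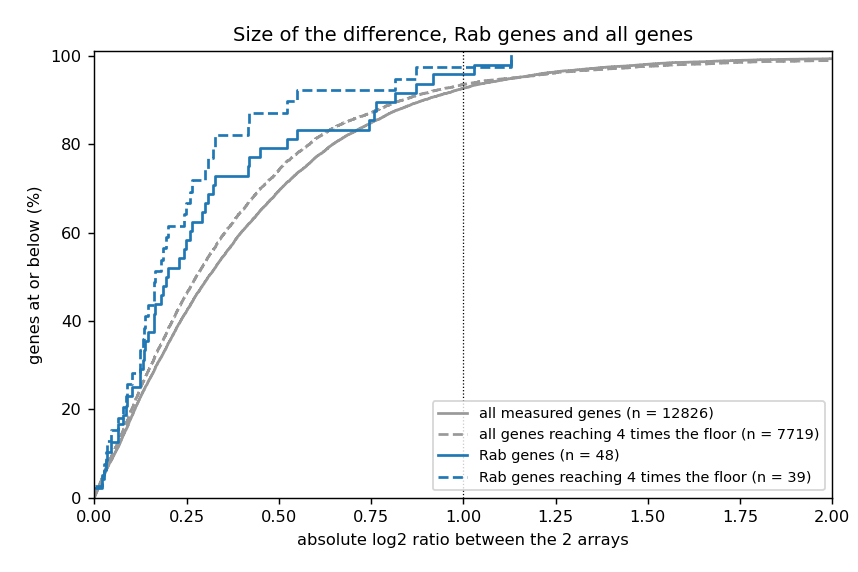
Share of genes in percent (vertical axis) whose absolute log2 ratio is at or below the value on the horizontal axis, for Rab genes in blue and all measured genes in grey; dashed curves are genes that reached 4 times the floor and the dotted line marks 2-fold. Over most of the range each blue curve lies above the grey curve of the same line style, with medians of 0.20 and 0.16 against 0.31 and 0.28.

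Higher and lower depend on how the arrays are made comparable. The median log2 ratio of the Rab genes was -0.01 for the values as deposited, 0.22 with labelling spikes made equal and 0.62 with hybridisation spikes made equal. The median of all genes moved with it, to -0.02, 0.20 and 0.62, and over these and the other scalings the Rab median lay between 0.02 below and 0.02 above the all-gene median. Spikes are foreign transcripts usually added in fixed amounts before labelling or before hybridisation. Over 7 scalings 27 of the 49 members took both signs, 18 stayed above 0 and 4 stayed below 0. The 4 were Rab13, Rab2b, Rab3d and Rab30. Without the spike scalings, 8 members took both signs, 18 stayed above 0 and 23 stayed below 0.

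**Figure D3:**
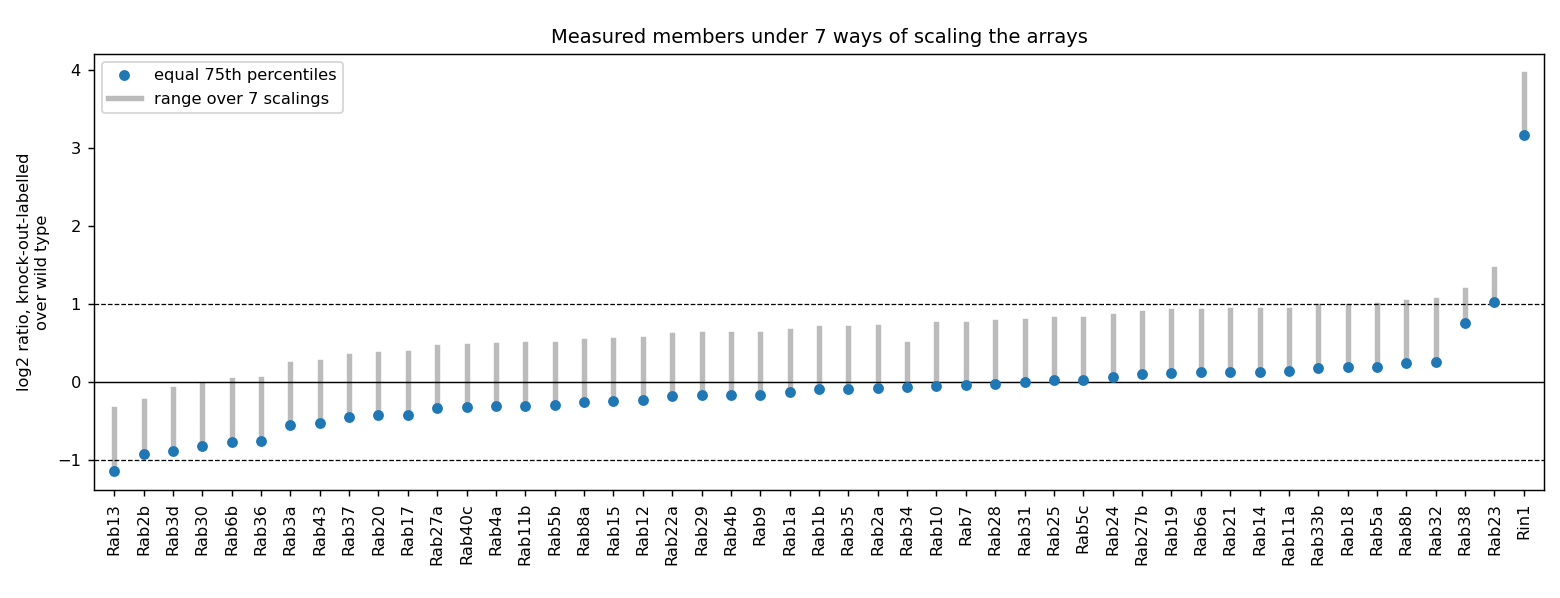
Log2 ratio of each of the 49 measured members (horizontal axis, ordered by value) with the arrays at equal 75th percentiles (points) and its range over 7 scalings (grey bars); dashed lines mark 2-fold. Rin1 runs from 3.16 to 3.95 and Rab13 from -1.13 to -0.34, while the bars of 27 members cross 0; bounds are drawn at their value.

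Rin1 encodes a RAS effector that loads RAB5 with GTP and also activates ABL tyrosine kinases, which links growth factor signalling to receptor endocytosis. The wild-type array read 159 and the knock-out-labelled array 1421, a difference of 8.96-fold. A dimmer probe set, whose suffix marks possible cross-hybridisation, went from 98.1 to 270, a log2 ratio of 1.46. Both probe sets were above the floor on both arrays and past 2-fold in the same direction. The ratio was 2.31 as the median of both probe sets and 2.08 with the floor at the 75th percentile, where the wild-type array is at the floor.

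The transcripts of RAB5 itself, which governs fusion and sorting at the early endosome, had log2 ratios from -0.29 to 0.20 in this scaling. Rab5a stood at 3893 and 4470.0, a log2 ratio of 0.20, Rab5c at 2463 and 2517, a ratio of 0.03, and the dim Rab5b at 124 and 102, a ratio of -0.29. None of the 3 reached 1.5-fold here. With hybridisation spikes equal, where the median of all genes was 0.62, Rab5a was 0.98, Rab5c 0.82 and Rab5b 0.49. Other RAB5 exchange factors did not share the Rin1 difference. Rin2 stood at 183 and 137, Rin3 at 181 and 81.9, and Rinl at 248 and 239.8, log2 ratios of -0.42, -1.15 and -0.05. A pair of further probe sets of Rinl gave -0.99 and -0.90. Rabgef1, which encodes Rabex-5, had a log2 ratio of 0.27, Gapvd1 0.09, Ankrd27, whose product acts on RAB21, 0.05, and Als2cl -0.17. Further probe sets of Gapvd1 ran from -1.35 to 0.17, and those of Rabgef1 gave -0.19 and 0.29.

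Genes of proteins that meet RIN1 were examined from a list of 13, of which 11 had a probe set and 10 were measured. None was 2-fold different on the probe set used, and the median log2 ratio was 0.00. Stam, an adaptor for ubiquitinated receptors that binds RIN1, was highest at 692 and 1002, a ratio of 0.53, though further probe sets gave -0.28 and 0.01. The ABL kinase genes had ratios of -0.25 for Abl1 and 0.06 for Abl2, with 0.51 and -0.14 on a further probe set of each. Egfr, the receptor whose uptake RIN1 promotes, stood at 515 and 472, a ratio of -0.13, with further probe sets from -1.73 to 0.40.

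**Figure D4:**
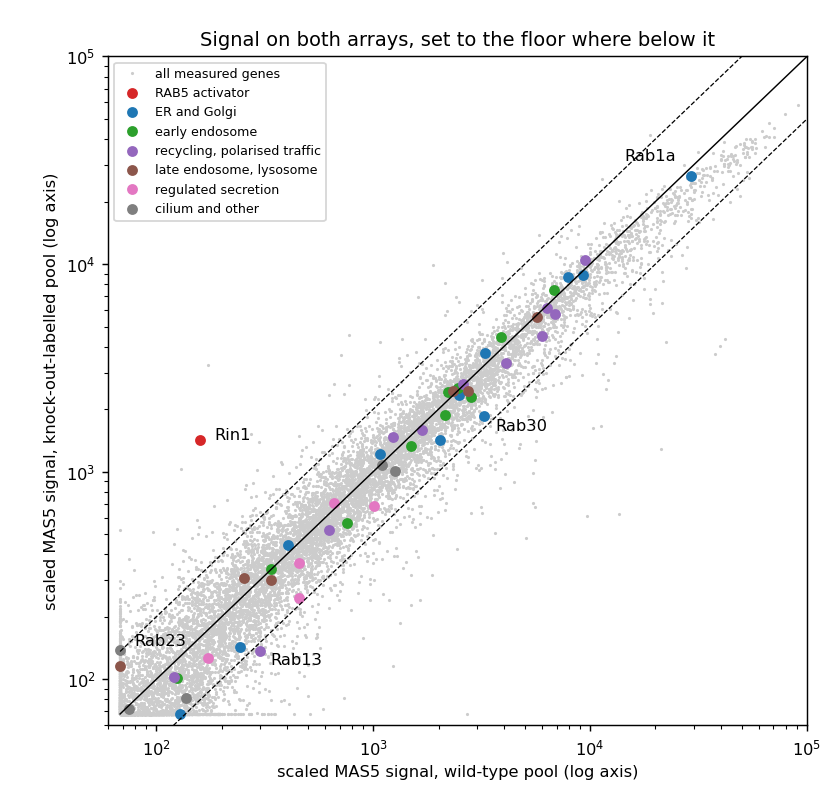
Scaled signal in the wild-type pool (horizontal, log axis) against the knock-out-labelled pool (vertical, log axis) for all 12826 measured genes in grey and the members in colour by role; values below the floor of 68.1 are drawn at the floor, the solid line marks equal signal and the dashed lines 2-fold. Rin1, at 159 and 1421, lies above the upper dashed line, and the Rab genes lie along the solid line, with Rab13 just below the lower dashed line and Rab23 on the upper one.

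Rab proteins of the ER and Golgi were represented by 12 genes, of which 11 were measured. By 2-fold 0 were different, beside 2.25% of all measured genes higher and 5.08% lower. At least 1.5-fold lower were 3, 27.3%, beside 16.3% of all measured genes, and 0 were higher, beside 7.84%. RAB1 and RAB2 act between the ER and the Golgi. Rab1a stood at 29049.8 and 26681 and Rab1b at 2497 and 2347, log2 ratios of -0.12 and -0.09, and Rab1a was 0.27 after quantile normalization. Rab2a stood at 9317 and 8832, a ratio of -0.08. Rab18, a Rab of the ER and lipid droplets, stood at 3264 and 3732, a ratio of 0.19, and a second probe set gave 0.33. Rab33b, whose product acts in Golgi traffic and autophagy, went from 1074 to 1222, a ratio of 0.19, and Rab19 from 406 to 442, a ratio of 0.12. Rab6a, for a Golgi Rab, went from 7888 to 8641, a ratio of 0.13 with further probe sets at 0.20 and 0.61.

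The lower end of the ER and Golgi group held Rab2b, Rab30 and Rab6b. Rab30 stood at 3247 and 1845, 1.76-fold lower, while its other probe set, near the floor, gave at most -0.08. Rab6b, best known from neurons, stood at 243 and 143, a ratio of -0.76 that became 0.03 with hybridisation spikes equal. The remaining Rab6b probe sets were below the floor. Rab2b went from 129 to 63.1, below the floor, a ratio of at most -0.92. A pair of its probe sets gave at most -0.53 and -0.52 and another at least 0.37, so its dim probe sets did not share a direction. Rab43, whose product acts in ER and Golgi transport, stood at 2042 and 1422, a ratio of -0.52, with -0.50 and -1.18 on dimmer probe sets. With hybridisation spikes equal Rab43 was 0.26, Rab30 -0.03 and Rab2b at most -0.24. The dimmest Rab43 probe set went from 178 to 78.6, so that 2 of 99 measured Rab probe sets, 2.02%, were at least 2-fold lower, beside 4.53% of all measured probe sets with 1 symbol. By the same measure 1 of the 99, 1.01%, was higher, beside 2.48%. At 1.5-fold, 5 of the 99 were higher, beside 8.72%, and 12 lower, beside 15.3%.

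Rab proteins of the early endosome form the group with the smallest range. All 10 genes were measured, and 5 were above and 5 below 0. All 10 lay within 1.5-fold on the probe set used, beside 75.8% of all measured genes. Rab14, which works between the Golgi and endosomes, stood at 6781 and 7459.8, a ratio of 0.14. Rab21, a Rab of integrin traffic, went from 2202 to 2419, also 0.14. Lowest were Rab20 at 759 and 567, a ratio of -0.42, and Rab4a, for fast recycling, at 2828 and 2285, a ratio of -0.31 with -0.41 on a second probe set. Rab4b had -0.16, and Rab31 had 0.00 with -0.70 on a second probe set. Rab22a was below 0 on all 4 probe sets, from -0.54 to -0.18. Rab20, Rab4a and Rab22a were above 0 with hybridisation spikes equal, at 0.36, 0.48 and 0.60.

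Recycling and polarised traffic, the routes that supply the apical and lateral membranes of enterocytes, were represented by 11 genes, all measured. Rab13, whose product takes part in the assembly of tight junctions, stood at 301 and 137, a log2 ratio of -1.13. It has 1 probe set, so no other reading of the gene was at hand. The ratio was -0.80 and -0.34 with labelling or hybridisation spikes equal, short of 2-fold. With the floor at the 75th percentile Rab13 was not measured. Rab17, an epithelial Rab of apical recycling, stood at 5999.7 and 4498, a ratio of -0.42, and a second probe set gave -0.42 too. Rab11b, a recycling Rab, was at -0.30 with -0.35 and -0.63 on dimmer probe sets. With hybridisation spikes equal Rab17 and Rab11b were at 0.37 and 0.48. At the upper end were Rab8b at 0.25, Rab11a at 0.14 and Rab25, the epithelial relative of Rab11a, at 0.03. Rab11a stood at 9453 and 10447, and a second probe set at 1007 and 1775, a ratio of 0.82. RAB8A and RAB11A support the brush border, and their loss is known to give microvillus inclusions. Rab8a stood at 6869 and 5742, a ratio of -0.26, and a dim probe set gave 0.27. Between these lay Rab10 at -0.05, Rab35 at -0.09, Rab12 at -0.23 and Rab15 at -0.24.

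Beside these polarised Rab genes, 13 of 14 measured enterocyte markers were below 0 and 3 were at least 2-fold lower, with 1 at least 2-fold higher. Their summed signal was 625669 in the wild-type and 392759 in the knock-out-labelled pool. All 14 were above the floor on both arrays, so both held enterocyte transcripts, which does not check the label jejunum itself. The part of these differences in the Rab values was not tested. In pooled tissue, fewer cells of a type and less RNA per cell cannot be told apart. Most of these markers are bright, and ratios of bright genes can depend on the scaling. Rab1a, at 29049.8 and 26681, moved from -0.12 to 0.27 after quantile normalization and to 0.20 after loess. Marker values, here and below, are given in the main scaling only. The part of scaling at high signal in the marker differences was not tested.

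Late endosome, lysosome and autophagy genes numbered 11, of which 6 were measured. Rab7, the Rab of late endosomes and lysosomes, stood at 5694 and 5562, a ratio of -0.03 with 0.25 on a second probe set. Rab9, for return from late endosomes to the Golgi, had -0.16, Rab29, a lysosomal and Golgi Rab, also -0.16, and Rab24, an autophagy Rab, 0.06. Rab32 and Rab38, relatives that act in lysosome-related organelles, were at the upper end. Rab32 stood at 255 and 306, a ratio of 0.27. Rab38 was below the floor in the wild-type pool at 48.3 and stood at 116 in the knock-out-labelled pool, a ratio of at least 0.76, with at least 0.64 on its other probe set. Both genes, and Rab8b, were past 2-fold with hybridisation spikes equal, Rab32 and Rab38 at 1.05 and at least 1.18, in a setting where 20.6% of all genes were at least 2-fold higher.

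Regulated secretion was represented by 8 genes, of which 5 were measured and 4 had ratios below 0, with 3 below 0 when labelling spikes were equal and 1, Rab3d at -0.09, when hybridisation spikes were equal. Rab3d, a Rab of exocrine granules, stood at 453 and 248, a ratio of -0.87, but its 3 other probe sets gave 0.12, 0.21 and at least 0.16. The direction of Rab3d is therefore unsettled, and the median of its probe sets was 0.14. Rab3a, a Rab of neuronal and endocrine vesicles, stood at 1006 and 687, a ratio of -0.55, with -0.62 on a second probe set at 152 and 98.8. With hybridisation spikes equal, Rab3a was 0.23, Rab37 0.34 and Rab27a 0.46. Rab37, a mast cell and secretory granule Rab, stood at 173 and 127, a ratio of -0.45, with 0.09 on a second probe set. Rab27a, for granule docking, stood at 455 and 363, a ratio of -0.33, and its relative Rab27b at 658 and 705, a ratio of 0.10. Further probe sets of Rab27b ran from -0.64 to 0.22. Rab26, which like Rab3d is a known target of the secretory-cell factor MIST1, was at 14.3 and 5.47, below the floor on both arrays. Bhlha15, the MIST1 gene and a known XBP1 target, stood at 144 and 75.8, a ratio of -0.92, with a second probe set at 104 and 32.1, at most -0.61.

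Marker lists of granule-bearing cells are given beside these values. Of 9 measured Paneth cell markers 6 were below 0 and 4 at least 2-fold lower, and their summed signal went from 90581 to 25297.5. Most of the wild-type sum lay in Lyz1, at 41914 and 4373, Defa39, at 21116 and 1291, and Itln1, at 9719 and 609. Ang4 went from 11608 to 15847, the largest part of the knock-out-labelled sum, Mmp7 from 875 to 1235 and Sox9 from 92.2 to 125. Of 10 goblet cell markers 8 were below 0 and 3 at least 2-fold lower, with sums of 283088 and 146156. The 2 above 0 were Spdef, at 473 and 479, and Atoh1, at 953 and 1022. Of 15 enteroendocrine markers 10 were below 0 and 3 at least 2-fold lower, with sums of 25806 and 17732, and Gip alone went from 10863 to 5709. None of these lists had a member at least 2-fold higher. Mast cell markers, of which 4 of 7 were measured, included 2 at least 2-fold higher, Mcpt1 and Mcpt2, and 2 below 0, Kit at -0.16 and Cpa3 at most -0.65. Their sum went from 563.6 to 1114, and the 3 others were below the floor on both arrays. Of 7 markers of enteric neurons and glia with a probe set, 5 were below the floor on both arrays. The 2 measured were Ret, at most -1.50 with -0.43 on a further probe set, and Tubb3, at most -0.78. The part of these cells in the values of Rab3a, Rab3d, Rab27a and Rab37 was not tested.

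The last group holds Rab proteins of the cilium and of other functions, 7 genes with 5 measured. Rab23, an inhibitor of Hedgehog signalling, was at 68.1 in wild type, just under the floor, and at 139 on the other array, at least 2.04-fold higher. Its second probe set went from 28.8 to 70.4, at least 0.05, and the third was below the floor on both arrays. With the median of its measured probe sets the ratio was 0.54. Rab36 stood at 136 and 81.4, a ratio of -0.75 with -0.73 on a second probe set, and was 0.04 with hybridisation spikes equal. Rab34, another ciliary Rab, had -0.06, at most -0.20 on its other probe set and 0.24 after quantile normalization. Rab28 had -0.02, with 0.46 on a second probe set, and Rab40c, a Rab with a ubiquitin ligase domain, -0.32. Rab23 and Rab36 were both dim. Fibroblast and endothelial markers, cells that the scrapings may hold, had 7 of 9 measured, 4 above and 3 below 0, and a sum of 1708 and 2285. The 1 at least 2-fold higher was Col1a1, below the floor in wild type, with 0.11 on its other probe set, and Dcn had -0.15, Kdr -0.36 and Cdh5 at most -0.45. Their part in the Rab23 value was not tested.

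Closely related Rab genes differed in part from each other. Of 18 pairs, chosen after values were seen, both genes were measured in 13, and in 6 the ratios had opposite signs. That count was 8 for the values as deposited and 2 with either spike scaling. With labelling spikes equal the pairs of opposite sign were Rab6a and Rab6b and Rab2a and Rab2b, and with hybridisation spikes equal Rab2a and Rab2b and Rab3a and Rab3d. Signs also turned on the probe set rule. With the median over probe sets, Rab8a and Rab8b, at 0.01 and 0.25, and Rab22a and Rab31, at -0.31 and -0.35, shared a sign. Rab3a and Rab3d, at -0.59 and 0.14, and Rab2a and Rab2b, at 0.04 and -0.53, were then opposite. A factor applied to a whole array cancels in the difference between members of a pair, apart from the floor. Rab6a was 0.89 above Rab6b on the log2 scale, and 0.89 to 0.98 over the 7 scalings. Rab2a was at least 0.84 above Rab2b, whose probe sets disagreed. The other pairs of opposite sign that were more than 0.2 apart differed by -0.51 for Rab8a and Rab8b, 0.49 for Rab5a and Rab5b, 0.44 for Rab11a and Rab11b and -0.43 for Rab27a and Rab27b. As a technical measure, probe sets above 2 times the floor on both arrays were compared within genes that had several such probe sets. Their log2 ratios had an SD of 0.30 over 3412 genes and of 0.22 over 20 Rab genes. This includes no variation between mice and leaves out dimmer probe sets, among them all those of Rab2b. Differences of more than 2 such SD for all genes, 0.60, were found for Rab6a and Rab6b and for Rab2a and Rab2b. That SD is of single probe sets about the mean of their gene. A difference between 2 genes scatters more, so 0.60 is a low mark for a pair and not a test. Both turn on a dim gene.

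**Figure D5:**
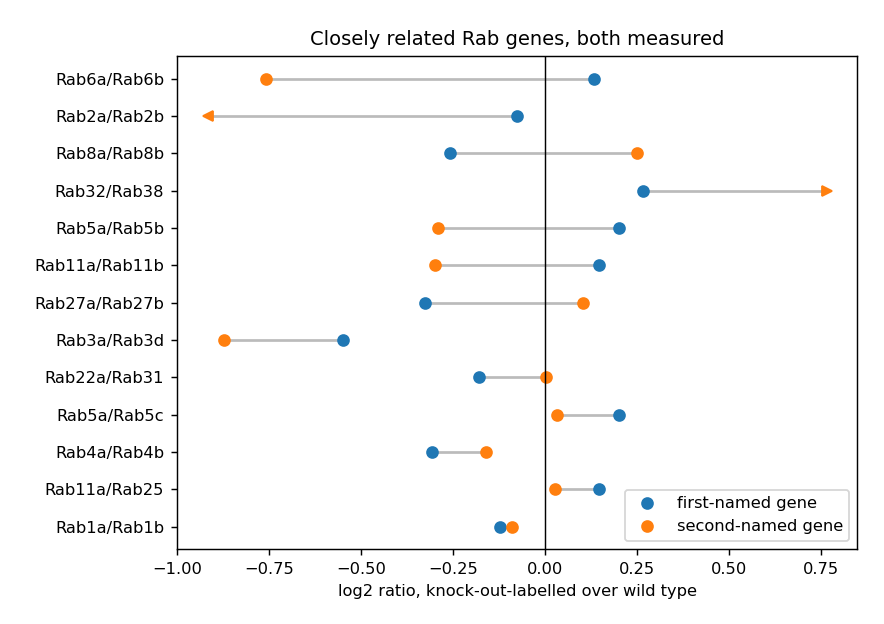
Log2 ratio of the knock-out-labelled over the wild-type pool (horizontal axis) for 13 pairs of related Rab genes (vertical axis, ordered by the distance within the pair); blue is the first-named gene, orange the second, and arrowheads are bounds with 1 array at the floor. Rab6a and Rab6b lie at 0.13 and -0.76, and Rab1a and Rab1b at -0.12 and -0.09.

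Agreement between probe sets sets a limit on single values. Of 29 Rab genes with at least 2 measured probe sets, all probe sets had the same sign in 18. For the bright Rab10, Rab14 and Rab2a, probe sets on either side of 0 were mostly small, as for Rab10 from -0.05 to 0.05. Rab14 ran from -0.38 to 0.49 over 6 measured probe sets, and the 4 bright ones gave 0.03 to 0.15. Other genes split more widely, as Rab3d from -0.87 to 0.21, Rab27b from -0.64 to 0.22 and Rab8a from -0.26 to 0.27. Rab2b ran from at most -0.92 to at least 0.37.

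The genes that load, unload and carry Rab proteins were taken from 8 lists of regulators and effectors. Of 169 measured genes on them, 2, or 1.18%, were higher by 2-fold or more and 8, or 4.73%, lower, beside 2.25% and 5.08% of all genes. Their median log2 ratio was -0.14. Exchange factors other than Rin1 numbered 48, with 43 measured, 0 higher and 1, Rin3, lower by 2-fold, and a median of -0.14. Next lowest were Dennd5a at -0.88 and Ric1, part of a RAB6 exchange factor, at -0.65, with -0.05 on a second probe set of Ric1. At the top was Mon1b, of the RAB7 exchange factor, at 0.65, with -0.49 on a second probe set, followed by Rabif at 0.30 and Rabgef1. The further probe sets of Rabif were all below 0, from -1.49 to -0.18.

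GTPase-activating proteins had the lowest median of the 8 lists in this setting, and with the floor at the 75th percentile they had -0.18 and effectors of early and recycling endosomes -0.19. All 36 were measured, and 27 were below 0, beside 60.2% of all measured genes. At least 2-fold lower were 3, beside 5.08% of all measured genes, and 0 were higher, beside 2.25%. Their median log2 ratio was -0.34 with all genes at -0.11, -0.25 with all genes at -0.02 for the values as deposited, and 0.48 with all genes at 0.62 with hybridisation spikes equal. Sgsm3 went from 176 to 33.6, below the floor, at most -1.37. Tbc1d4, known as AS160 and active on the Rabs of glucose transporter vesicles, went from 143 to 18.1, at most -1.07, with -0.28 on a second probe set. Tbc1d16 stood at 164 and 80.9, a ratio of -1.02. The upper end held Tbc1d2, a GAP for RAB7, at 42.2 and 118, at least 0.80, Tbc1d17 at 238 and 397, a ratio of 0.74, and Tbc1d15 at 3073 and 3968, a ratio of 0.37. The 3 genes past 2-fold were dim in the wild-type pool.

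Prenylation and membrane cycling genes, 12 of 13 measured, had a median of 0.01 and none was 2-fold different. Rabggta, the alpha subunit of the Rab prenyl transferase, stood at 446 and 698, a ratio of 0.65, and Rabggtb, the beta subunit, had 0.22. Gdi2, a GDP dissociation inhibitor, had -0.30 and the prenylated Rab acceptor gene Rabac1 -0.69, at 2275 and 1409.8. Yipf6 and Yipf1, genes of Golgi membrane proteins that bind Rabs, had 0.31 and -0.49.

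Among effectors of early and recycling endosomes, 22 of 27 were measured, with a median of -0.21. At least 2-fold higher was 1, beside 2.25% of all measured genes, and 2 were lower, beside 5.08%. Rab11fip4, a RAB11 effector, stood at 637 and 269, a ratio of -1.25, and Ehbp1, which joins RAB8 and RAB10 to actin, at 319 and 144, a ratio of -1.15. Exoc6, a subunit of the exocyst that binds RAB11, had -0.53. Myo5b, the motor that moves RAB11 vesicles to the apical membrane, stood at 12605 and 9142, a ratio of -0.46 with -0.35 and -0.11 on its other probe sets. At the upper end were Sh3tc1, below the floor in the wild-type pool at 40.8 and at 196 in the other, at least 1.52, Ehbp1l1 at 0.51 and Pik3r4, of the RAB5-bound lipid kinase, at 0.28.

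Effectors of late endosomes and lysosomes, 20 of 20 measured, had a median of -0.02 and none past 2-fold. Rabepk, a RAB9 effector, came closest at 158 and 315, a log2 ratio of 0.998, with -0.50 and 0.10 on further probe sets. Rilpl2 and Gcc2 followed at 0.56 and 0.35, and Vps33b, Plekhm2 and Rilp were lowest at -0.79, -0.59 and -0.44. Golgi effectors, 13 of 14 measured, had a median of 0.02. The kinesin gene Kif20a, named for RAB6 binding and also a mitotic motor, stood at 80.4 and 169, a ratio of 1.07, while 7 of 8 measured markers of proliferating crypt cells were above 0 and their sum went from 7951 to 12946. The part of proliferation in this value was not tested. Gorasp1 and Golga5 had 0.24 and 0.21, with -0.62 on a further probe set of Gorasp1. Bicd2, Golga1 and Uso1 had -0.34, -0.33 and -0.14. Further probe sets gave 0.17 and 0.34 for Bicd2, and -0.10 and 0.07 for Golga1.

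Effectors of regulated secretion, 13 of 15 measured, had a median of -0.14. At least 2-fold lower were 2 genes, beside 5.08% of all measured genes, and 0 were higher, beside 2.25%. Sytl1, a RAB27 effector, stood at 249.95 and 79.6, a ratio of -1.65, and Rph3a, a RAB3 effector, at 144 and 43.1, at most -1.08. Sytl4, or granuphilin, of endocrine granules, went from 125 to 74.6, a ratio of -0.74. Upper members were Rims2 at 0.50, with -0.20 and -0.14 on further probe sets, Myrip at least 0.40 and Unc13d, which primes RAB27A granules, at 0.24. All of these except the wild-type signal of Sytl1 were below 3 times the floor, and Sytl1, Rph3a and Sytl4 were read by 1 measured probe set each.

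The arrays and their labels bear on every direction above. Deposited signals had a median of 72.5 for wild type and of 62.2 for the other array. Xbp1 itself gave log2 ratios from -0.26 to 0.06 over 4 probe sets, which checks neither label, since it is not known whether any of them lies in the removed part of the gene. Tuft cell markers were above 0 for 6 of 7 measured genes with a sum of 1296 and 2385, and leukocyte markers were below 0 for 12 of 14 with a sum of 39633 and 25292. Markers of smooth muscle were below 0 for 5 of 6 measured genes with sums of 6718 and 5941, and of 5 pancreatic acinar markers with a probe set 3 were below the floor on both arrays. The part of these cells in the Rin1 and Rab values was not tested.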

How the data were processed

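Each array of a whole-genome Affymetrix mouse design yielded 1 deposited intensity per probe set, on a linear scale, computed by the authors with MAS5 per the submitters' processing notes. The sources used here give neither a MAS5 version nor detection calls. Both deposited columns have the same trimmed mean of 500, leaving out 2% at each end. MAS5 subtracts mismatch signal, so dim values scatter widely.

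From these values each array was scaled to a common 75th percentile of non-control probe sets, with factors of 1.034 and 0.967. Anything under the 50th percentile of the pooled scaled signals was raised to it before log2 was computed. The table lists 45101 probe sets, of which 34945 had 1 symbol, 932 with several symbols were left out, and 9160 are unnamed here. Symbols were updated through the RefSeq table of GRCm38.p6, which altered no member's symbol. Python 3.11.15, numpy 2.4.6, pandas 2.3.3 and statsmodels 0.14.6 were used, and the calculation was tested on simulated data.

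All measured members and, from each regulator list, up to 3 genes at either end are named. The members, roles, lists and alternatives were chosen with earlier results of these data known, and the related pairs, motifs and printed promoters after values had been seen. Alternatives were other scalings, floors, fold thresholds and probe set rules. No test was possible with 1 array per genotype.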

Additional observations from a re-analysis of the deposited data

How the results depend on the processing

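Rin1 was at least 2-fold higher under all 13 alternatives. Rin1 and Rab23 higher and Rab13 lower were also the calls after loess or quantile normalization, with trimmed means made equal and for the deposited values. The number of members at least 2-fold higher was 5 with hybridisation spikes equal, 4 with the floor at the 25th percentile, and 1 with the floor at the 75th percentile, the median over probe sets, probe sets without suffix, 3-fold in place of 2-fold, or genes reaching 4 times the floor. The number lower was 6 with the floor at the 25th percentile or a 1.5-fold threshold and 0 with either spike scaling, the floor at the 75th percentile or 3-fold. For all genes, 711 were higher and 321 lower with labelling spikes equal, 5.58% and 2.52%. With hybridisation spikes equal they were 2641 and 126, 20.6% and 0.982%. With the floor at the 25th percentile 1139 and 2531 of 16622 genes were called, 6.85% and 15.2%, beside 4 and 6 of 59 members. With it at the 75th they were 85 and 219 of 7173, 1.18% and 3.05%. At 1.5-fold they were 1005 and 2093, 7.84% and 16.3%, and at 3-fold 55 and 135, 0.429% and 1.05%. Among genes reaching 4 times the floor they were 162 and 337, 2.1% and 4.37%. The shares were 1.76% and 4.16% with the median over probe sets and 2.17% and 5.14% for probe sets without suffix. The Rab median was 0.22 and 0.62, and the median of all genes 0.20 and 0.62, with labelling and hybridisation spikes equal. For the values as deposited, 2.99% of all genes were 2-fold higher and 4.14% lower, and after loess 2.9% and 3.84%. The cause of these shifts was not tested beyond the scaling, floor or threshold that each setting alters. No paired analysis was possible because each genotype has 1 array. Signal near the floor limits Rab23, Rab38, Rab2b, Rab6b, Rab36, Rab34, Rab12, Rab5b and Rab37. The knock-out-labelled signal of Rab13, 137, was also low, and Rab13 was not measured with the floor at the 75th percentile.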
